A study of Mus musculus with 2 samples.

Results

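Transcripts of 10 collagen and bone matrix genes were followed in RNA of mouse neutrophils: Col1a1, Col1a2, Col3a1, Col5a2, Sparc, Bglap, Ibsp, Alpl, Spp1 and Runx2. They are 10 of the 55536 annotated genes in the deposited gene tables, and each was found under 1 gene identifier. The members were chosen by name with measured values of these data in view, namely their levels and their ratio between the libraries. Levels and ratios are therefore given as descriptions, with no test.

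The study holds 1 group of 2 libraries, labelled biological replicates 1 and 2, with no treatment and no control group. Each library was total RNA of primary neutrophils labelled as spleen, from a virgin adult male of strain B6CASTF1/J aged 59 days, the F1 of a C57BL/6 female and a CAST/EiJ male. The input was 300 ng of RNA, ERCC controls were added, and the protocol was directional and reduced ribosomal RNA. The 2 libraries carry separate biosample labels and the same donor label, so the spread between them may be technical.

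Replicate 1 held 18836093 estimated reads and replicate 2 held 18444369. Transcript levels are in TPM, a unit corrected for transcript length and library size, and 12477 and 12500 genes reached a TPM of at least 1. All 13 neutrophil markers examined were above that level, with a summed TPM of 67428 and 64121. The most abundant were S100a9 and S100a8, the calprotectin subunits, with Ngp and Ltf of the secondary granules. Against this, the 10 bone matrix genes summed to a TPM of 82.4 in replicate 1 and 220 in replicate 2. They held 0.034% and 0.0987% of the reads on annotated genes other than ribosomal RNA genes.

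Bone matrix is laid down by osteoblasts as a scaffold of fibrillar collagen, mostly type I, which is then filled with mineral. Proteins that bind collagen or calcium, among them osteonectin (Sparc), osteocalcin (Bglap), bone sialoprotein (Ibsp) and osteopontin (Spp1), are embedded in it. Alkaline phosphatase (Alpl) removes the pyrophosphate that blocks mineral growth, and RUNX2 is the transcription factor that osteoblasts need in order to form. Neutrophils mature in the bone marrow beside these cells. The stroma of the spleen also makes fibrillar collagens, type III among them.

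By mean TPM the genes ran in the order Col1a1, Col1a2, Runx2, Bglap, Sparc, Spp1, Col5a2, Ibsp, Alpl and Col3a1. From Col1a1 down to Sparc, the ranges of neighbouring genes over the 2 libraries overlapped. The ranges of Sparc and Spp1 did not overlap, nor did those of Spp1 and Col5a2, of Ibsp and Alpl, or of Alpl and Col3a1, while Col5a2 and Ibsp overlapped. In both libraries, 6 of the 10 genes reached a TPM of 1, and 4 (Col3a1, Col5a2, Ibsp and Alpl) were under 1 in at least 1 library.

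**Figure D1:**
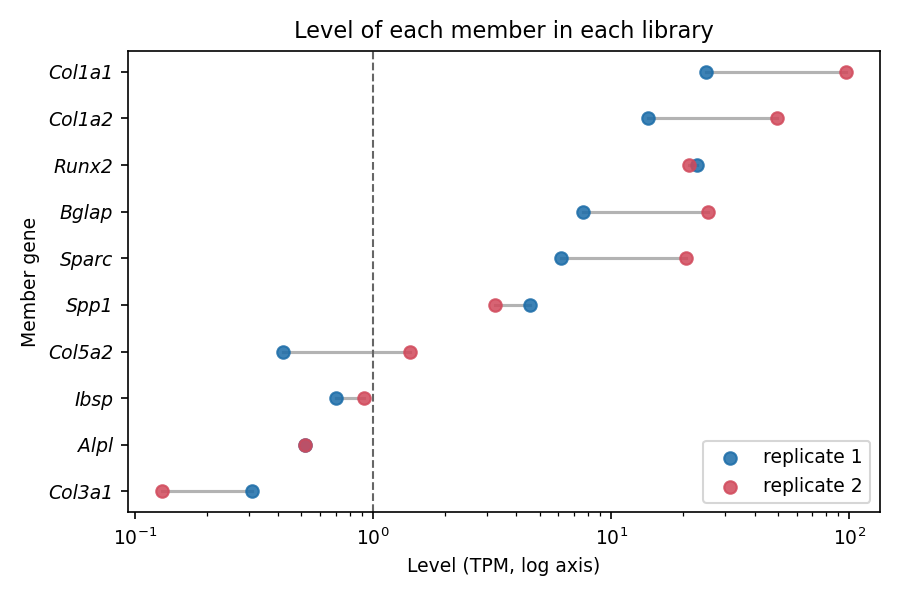
Level of each of the 10 genes in TPM, on a log axis, with 1 point for each library and a dashed line at a TPM of 1. Col1a1 is the highest in both libraries (24.9 and 96.4), Runx2 is nearly level between them (22.9 and 21.3), and Col3a1 is the lowest in both (0.31 and 0.13).

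Fibrillar collagens are long helices built from short repeats, each opening with glycine and followed by a pair of other amino acids. The small glycine lets the chains pack together, and the pattern can be read directly in the coding sequence. The first 60 bases of the longest such run in the coding sequence of each collagen gene in the list are shown, 5′ to 3′, from the annotation's transcripts, with the glycine codons (GGN) in capitals.
Col1a1-201: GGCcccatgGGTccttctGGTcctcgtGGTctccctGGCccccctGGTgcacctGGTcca
Col1a2-201: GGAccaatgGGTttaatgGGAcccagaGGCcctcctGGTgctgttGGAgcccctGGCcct
Col3a1-201: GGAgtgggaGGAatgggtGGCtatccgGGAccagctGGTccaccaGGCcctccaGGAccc
Col5a2-201: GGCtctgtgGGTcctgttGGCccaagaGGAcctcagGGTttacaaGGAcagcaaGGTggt
The run held 338 consecutive repeats in Col1a1, which spanned codons 168 to 1181 of 1453, or 69.8% of them. It held 339 repeats in Col1a2, 344 in Col3a1 and 339 in Col5a2, so the 4 genes share a helix of nearly 1 length. The stretches shown are spliced and cross introns in the genome.

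Col1a1 and Col1a2, which encode the chains of type I collagen, were the main collagen transcripts. Col1a1 (ENSMUSG00000001506.10, chr11:94936224-94953042, plus strand, mm10) had 2714 reads and a TPM of 24.9 in replicate 1, and 10160 reads and a TPM of 96.4 in replicate 2 (mean 60.7 ± 50.5, SD, n = 2). Among protein-coding genes it ranked 3170 by TPM in replicate 1 and 743 in replicate 2. Replicate 2 was the high library, and after scaling to the reads of each library its count was 3.84-fold that of replicate 1 (counting interval 3.68 to 4.01). This interval, like those below, is an exact 95% interval (Clopper-Pearson), and it covers counting error alone.

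Col1a2 (ENSMUSG00000029661.16, chr6:4504814-4541544, plus strand) had 1295 reads and a TPM of 14.2 in replicate 1, and 4527 reads and a TPM of 49.7 in replicate 2 (mean 32.0 ± 25.1, SD, n = 2). It was 3.58-fold higher in replicate 2 (3.37 to 3.82). The level of Col1a1 was 1.75 times that of Col1a2 in replicate 1 and 1.94 times in replicate 2, so the balance of the chains moved far less than their amount. Both chains together made up 47.5% of the summed TPM of the 10 genes in replicate 1 and 66.5% in replicate 2. Nearly all of these reads were assigned to protein-coding transcripts, 99.9% for Col1a1 in both libraries and 98.7% and 99.3% for Col1a2. A single transcript, Col1a1-201, took 98.6% and 98.9% of the gene's TPM.

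Col3a1 and Col5a2 are neighbours on chromosome 1, on opposite strands and 24614 bases apart, and they differed from each other here. Col5a2 (ENSMUSG00000026042.16, chr1:45374321-45503282, minus strand), a chain of type V collagen, which joins type I fibrils and limits their width, had 52 reads and a TPM of 0.42 in replicate 1. In replicate 2 it had 171 reads and a TPM of 1.43, which was 3.35-fold higher (2.46 to 4.69). Col3a1 (ENSMUSG00000026043.18, chr1:45311538-45349706, plus strand), the type III collagen of reticular fibres and soft tissue, had 11 reads in replicate 1 and 8 in replicate 2, with a TPM of 0.31 and 0.13. At that depth no difference of Col3a1 was detectable (0.758-fold, 0.261 to 2.04). The level of Col1a1 was 80.4 times that of Col3a1 in replicate 1 and 741 times in replicate 2, and both ratios rest on the few reads of Col3a1.

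Type I was likewise the main collagen among all 44 annotated collagen genes. These had 4777 reads in replicate 1 and 16034 in replicate 2, of which Col1a1 and Col1a2 held 83.9% and 91.6%. Only 4 of the 44 reached a TPM of 1 in each library, and 8 had no read in either.

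Sparc (ENSMUSG00000018593.13, chr11:55394500-55423183, minus strand), the collagen-binding glycoprotein osteonectin, had 225 reads and a TPM of 6.17 in replicate 1 (mean of both libraries 13.4 ± 10.2, SD, n = 2). In replicate 2 it had 763 reads and a TPM of 20.6, and was 3.47-fold higher (2.99 to 4.05). Its main transcripts were Sparc-202, with 47.7% and 68.1% of the gene's TPM, and Sparc-201, with 40.4% and 27.4%. Protein-coding transcripts took 96.0% and 99.9% of its reads.

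Bglap, or osteocalcin, is a small secreted protein that carries modified glutamate residues and binds calcium, and it is made late in osteoblast maturation. In the mouse it sits in a cluster with the near copies Bglap2 and Bglap3 on chromosome 3. Their coding sequences are shown, from the annotation's transcripts on mm10, because reads that fall in identical stretches can be split among them by the estimator. Capitals mark the bases of Bglap2 and Bglap3 that differ from Bglap.
Bglap-201: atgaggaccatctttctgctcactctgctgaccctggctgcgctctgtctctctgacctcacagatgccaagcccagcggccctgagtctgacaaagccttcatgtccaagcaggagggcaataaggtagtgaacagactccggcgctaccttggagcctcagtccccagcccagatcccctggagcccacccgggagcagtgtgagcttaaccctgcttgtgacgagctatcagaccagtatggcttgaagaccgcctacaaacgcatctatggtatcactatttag
Bglap2-201: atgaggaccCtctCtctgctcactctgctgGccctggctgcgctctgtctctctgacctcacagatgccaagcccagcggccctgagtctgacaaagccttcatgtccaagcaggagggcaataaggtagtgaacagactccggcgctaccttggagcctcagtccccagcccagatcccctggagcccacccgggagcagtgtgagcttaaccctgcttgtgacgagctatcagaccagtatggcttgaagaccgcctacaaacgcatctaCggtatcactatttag
Bglap3-201: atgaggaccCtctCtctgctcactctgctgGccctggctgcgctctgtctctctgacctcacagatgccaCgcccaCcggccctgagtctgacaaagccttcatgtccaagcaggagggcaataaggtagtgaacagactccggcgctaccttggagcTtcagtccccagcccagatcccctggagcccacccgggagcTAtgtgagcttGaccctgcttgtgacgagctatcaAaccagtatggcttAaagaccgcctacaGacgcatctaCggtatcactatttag
All 3 coding sequences are 288 bases long and align without gaps. Bglap2 differs from Bglap at 4 bases (98.6% identity) and Bglap3 at 13 (95.5%). They lie on the minus strand at chr3:88383635-88384415, chr3:88377870-88378650 and chr3:88368756-88369536.

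Bglap (ENSMUSG00000074483.2, chr3:88383501-88384464) had 47.0 estimated reads and a TPM of 7.63 in replicate 1, and 157 reads and a TPM of 25.4 in replicate 2 (mean 16.5 ± 12.6, SD, n = 2). It was 3.39-fold higher in replicate 2 (2.46 to 4.85). Bglap2 had 12.0 and 31.5 reads, and Bglap3 had 9 and 40.6. Summed over the 3 copies, which does not depend on the split among them, there were 68.0 reads in replicate 1 and 229 in replicate 2. That was 3.44-fold more (2.62 to 4.60). Each copy had more estimated reads in replicate 2, but the split among them is uncertain, and Bglap2 and Bglap3 were each under 50 summed reads. The 9 reads of Bglap3 in replicate 1 were all assigned to Bglap3-204, not a protein-coding transcript, which had 9.77 in replicate 2. In the second transcript table, which did not start from those alignments, Bglap alone had 21.7 and 104 reads. The 3 copies summed had 44.5 and 181 there, so the sum still depends on the estimate used.

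Ibsp and Spp1 belong to the SIBLING family, acidic phosphoproteins of bone and teeth whose genes lie in a cluster on chromosome 5. Ibsp and Spp1 are 123648 bases apart, with Mepe between them. Ibsp (ENSMUSG00000029306.8, chr5:104299171-104311469, plus strand), a protein that seeds mineral crystals and is largely restricted to mineralizing tissue, had 26 reads in replicate 1 and 33 in replicate 2, with a TPM of 0.70 and 0.92. It differed by less than counting error (1.30-fold, 0.755 to 2.27). Spp1 (ENSMUSG00000029304.14, chr5:104435118-104441050, plus strand), which macrophages and other immune cells also make, had 105 reads and a TPM of 4.57 in replicate 1, and 71.8 reads and a TPM of 3.25 in replicate 2. Spp1 was thus higher in replicate 1, the opposite of type I collagen, by 1.43-fold (replicate 2 over replicate 1 0.701, counting interval 0.514 to 0.958). Bglap was 10.9 times as abundant as Ibsp in replicate 1 and 27.6 times in replicate 2. An unnamed transcript on the same strand, Gm42793, overlaps Spp1 and had 15.7 and 15.2 reads.

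Alpl (ENSMUSG00000028766.10, chr4:137741733-137796384, minus strand), the tissue-nonspecific alkaline phosphatase, was near the limit of detection, with 17 reads in replicate 1 and 23 in replicate 2. Its TPM was 0.52 in both libraries. The deposited posterior mean TPM of the same gene was 2.31 and 2.42, so its level depends on the measure. No difference between the libraries was detectable (1.38-fold, 0.710 to 2.77).

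Runx2 (ENSMUSG00000039153.16, chr17:44495987-44814797, minus strand) was the one gene of the list that stood at a similar level in both libraries and well above a TPM of 1. It had 1655 reads and a TPM of 22.9 in replicate 1, and 1464 reads and a TPM of 21.3 in replicate 2 (mean 22.1 ± 1.14, SD, n = 2). The scaled count of replicate 2 was 0.907 of that of replicate 1 (0.845 to 0.974). In replicate 1 the level of Col1a1 was 1.09 times that of Runx2, and in replicate 2 it was 4.53 times. Genes on the opposite strand overlap Runx2. Of these, Supt3 had 182 and 156 reads, Runx2os2 had 15 in each library and Runx2os1 had 10 and 12, and the libraries keep strand.

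Runx2 is transcribed from a distal promoter, whose isoform is typical of osteoblasts, and from a proximal promoter with wider use. The annotation places 7 transcripts in the distal cluster of starts and 6 in the proximal cluster, which lie 77578 bases apart. Transcripts of the proximal cluster held 1475 of the reads (89.1%) in replicate 1 and 1401 (95.7%) in replicate 2, most of them assigned to Runx2-203 (1336 and 1282 reads). Transcripts of the distal cluster held 180 reads (10.9%) and 62.9 (4.30%). In the second transcript table the distal cluster held 3.07 reads (0.163%) and 34.4 (2.08%). By TPM, the distal share was 7.16% and 5.96% in the first table, and 3.52% and 33.7% in the second, where the distal TPM of replicate 2 was 8.82 and the proximal TPM 17.3. Most of that distal TPM (8.49) was assigned to 1 transcript, annotated as subject to nonsense-mediated decay, with 27.7 reads. Both tables put most Runx2 reads on proximal transcripts, and they disagree on which library had more distal reads and on the distal level in replicate 2.

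**Figure D2:**
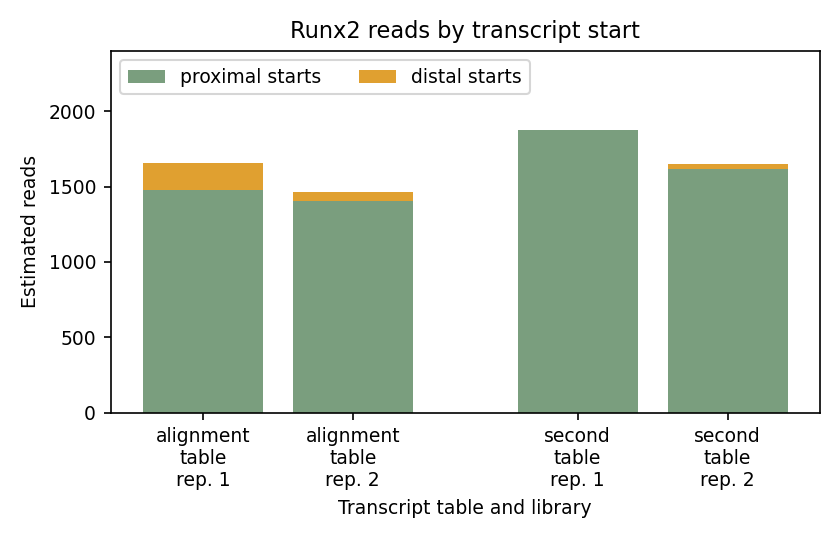
Reads assigned to Runx2 transcripts of the proximal and the distal start cluster, stacked, for each library in each of the 2 deposited transcript tables. Proximal transcripts make up 89.1% and 95.7% of the reads in the first table and 99.8% and 97.9% in the second.

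RUNX proteins bind DNA at a short core, ACCACA, and the osteocalcin promoter is a classic target of RUNX2. RefSeq promoter windows on GRCm38.p6, the 250 bases before a start site, were available for 8 of the 10 genes (10 windows). The window of Bglap and the first of 2 windows of Spp1 are shown because both hold the core, while the transcripts of these genes differed between the libraries in opposite directions. Capitals mark, on either strand, the RUNX core ACCACA, the TATA-box motif TATAAA and the CCAAT box.
Bglap: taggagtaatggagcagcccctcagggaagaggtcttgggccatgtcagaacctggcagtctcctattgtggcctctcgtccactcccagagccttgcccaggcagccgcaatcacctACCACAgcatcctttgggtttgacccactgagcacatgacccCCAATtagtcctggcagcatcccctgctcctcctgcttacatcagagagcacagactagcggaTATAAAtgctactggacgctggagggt
Spp1: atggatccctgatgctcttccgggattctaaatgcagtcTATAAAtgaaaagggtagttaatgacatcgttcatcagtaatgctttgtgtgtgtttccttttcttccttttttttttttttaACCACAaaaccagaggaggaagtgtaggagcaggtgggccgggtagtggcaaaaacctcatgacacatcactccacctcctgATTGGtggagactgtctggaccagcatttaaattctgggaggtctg
The Bglap window spans chr3:88384467-88384716 on the minus strand and the first Spp1 window chr5:104434861-104435110 on the plus strand. The core begins 132 bases before the start of Bglap and 128 bases before the first start of Spp1. It was also found 80 bases before the distal start of Runx2. None of the windows of Col1a2, Col3a1, Sparc, Ibsp and Alpl held it. The second window of Spp1 held none of the 3 motifs. Of all 32851 promoter windows of that length, 14.0% held it on either strand, 12.4% held TATAAA and 33.8% held CCAAT. The TATA-box motif begins 27 bases before the start of Bglap, and on the minus strand 28 bases before that of Ibsp. The motifs did not overlap each other, and a match describes the letters only.

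To set the difference between the libraries against that of other genes, the ratio of replicate 2 to replicate 1 was taken for the 12429 annotated genes with at least 50 reads summed over both libraries. Of these, 196 (1.58%) were at least 2-fold higher in replicate 2 and 87 (0.7%) at least 2-fold lower. Among the 10 bone matrix genes, 8 had enough reads, and 5 of them (Col1a1, Col1a2, Sparc, Bglap and Col5a2) were at least 2-fold higher in replicate 2, while 0 were at least 2-fold lower. The list was chosen with this contrast known, so nothing is read from the count. Those 5 lay between 3.35-fold and 3.84-fold by this measure, a range that moved with the processing. Over 8 alternatives Col5a2 ran from 2.74-fold to 3.56-fold and Bglap from 3.19-fold to 4.82-fold. Ibsp, Spp1 and Runx2 were not past 2-fold, and Col3a1 and Alpl had too few reads. The median log2 ratio of the 8 genes was 1.75, and that of all 10, those with too few reads included, was 1.10, beside -0.0007 for all genes compared, whose median absolute log2 ratio was 0.14. In bulk RNA, fewer cells of a type and less RNA per cell cannot be told apart.

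**Figure D3:**
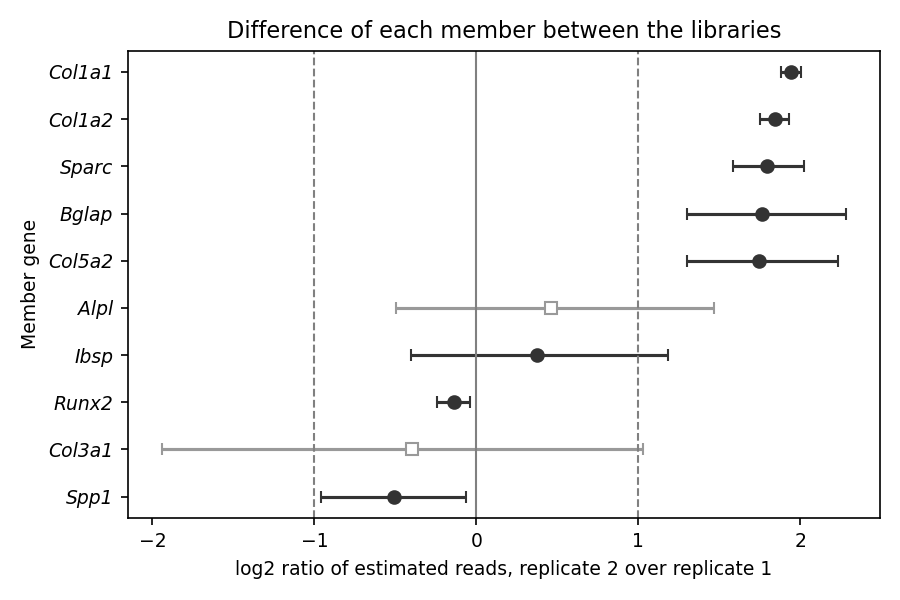
Log2 ratio of replicate 2 over replicate 1 for each of the 10 genes, with bars for the 95% interval of counting error and open squares for genes under 50 reads. Of the 10 genes, 5 lie between 1.74 and 1.94, while Spp1 (-0.51), Runx2 (-0.14) and Col3a1 (-0.40) lie below 0.

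Genes that act with the members were then described, from lists chosen with earlier results of these data known. Of the 11 fibrillar collagen genes, 9 had enough reads and 5 were at least 2-fold higher in replicate 2, 3 of them being Col1a1, Col1a2 and Col5a2. The other 2 were Col11a1 and Col2a1. Col11a1, a minor fibrillar collagen, had 52 and 195 reads (3.82-fold, 2.82 to 5.33). Col2a1, the collagen of cartilage, had 12 and 71 reads (5.87-fold, 3.27 to 12.3) and a TPM of 0.30 and 0.79. Of 8 chondrocyte markers, Col2a1 alone had enough reads, and 3 (Acan, Col9a1 and Col10a1) had no read. Col11a2 with 198 and 383 reads (1.98-fold) and Col5a1 with 87 and 157 (1.85-fold) were higher by less than 2-fold. Col5a3 with 55 and 52 reads and Col27a1 with 37 and 41 were nearly level. Of the annotated collagen genes outside the fibrillar list, Col7a1 (55 and 60 reads), Col20a1 (51 and 49) and Col23a1 (39 and 29) reached 50 summed reads. None of these was past 2-fold. None of the 13 genes on a list of other collagens, among them those of basement membranes and beaded filaments, reached 50 summed reads.

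Of 21 genes for the folding, modification and processing of collagen, 14 had enough reads and 2 were at least 2-fold higher. Serpinh1, the collagen-specific chaperone HSP47, had 22 and 75 reads and a TPM of 0.57 and 2.00 (3.44-fold, 2.15 to 5.91). Bmp1, the protease that trims the procollagen tail, had 21 and 48 reads (2.31-fold, 1.38 to 4.12). In the second transcript table Bmp1 had 32.55 and 52.2 reads, a smaller difference. Adamts2 was lower in replicate 2 by less than 2-fold, with 48 and 28 reads (0.603-fold, 0.361 to 0.973). The abundant members of that list serve many secreted proteins and were nearly level, among them P4hb with a TPM of 133 and 142, Ppib with 97.7 and 99.1, and Plod3 with 47.6 and 53.2.

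Of the 17 matricellular and leucine-rich matrix genes, 4 had enough reads and Sparc alone was past 2-fold. Thbs1, a matrix glycoprotein that platelets and myeloid cells also release, had the highest level of that list, with a TPM of 250 in replicate 1 and 159 in replicate 2. Among the 9 SIBLING and Gla protein genes, 3 had enough reads (Bglap, Ibsp and Spp1) and Bglap alone was past 2-fold. None of the 6 mineralization enzymes and transporters with enough reads was past 2-fold. Phospho1, the phosphatase of matrix vesicles, had a TPM of 75.9 and 69.1, and the phosphate transporter Slc20a1 had 49.0 and 63.9.

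The list of osteoblast regulators holds 14 genes, Runx2 among them, and of the 7 with enough reads, again counting Runx2, 0 were past 2-fold. The related factor Runx1 had a TPM of 60.4 and 68.2 and the shared partner Cbfb 37.3 and 36.1, both above Runx2. Sp7, or osterix, which acts after RUNX2 in osteoblast formation, had 2 and 8 reads. For the receptors of collagen and osteopontin, 0 of 7 genes with enough reads were past 2-fold, with Cd44 at a TPM of 250 and 220 and Itgb1 at 30.2 and 35.0.

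The makeup of the samples was described with marker lists of other cell types. Of 14 osteoblast markers, 6 reached a TPM of 1 in each library, and the summed TPM of the list was 79.6 in replicate 1 and 205 in replicate 2. That list holds 7 of the 10 bone matrix genes, and also Ifitm5, an osteoblast membrane protein, which had 18 and 8 reads. Osteocyte markers were scarce, with a summed TPM of 0.52 and 0.69, and 2 of 6 (Sost and Fgf23) had no read. Of 10 fibroblast markers, 2 (Pi16 and Fbln1) had enough reads and neither was past 2-fold, while 3 (Dpt, Mfap5 and Tcf21) had no read. Pi16 alone, with a TPM of 93.9 and 91.6, made up most of the summed TPM of that list (96.0 and 94.5). The small proteoglycans of that list were under 50 summed reads, with more in replicate 2. Dcn had 12 and 36 (2.99-fold, 1.56 to 6.50) and Lum had 0 and 12. In the second transcript table Dcn had 28.0 and 39.0 reads. Also under 50, Pdgfra had 7 and 15 reads, while Col14a1 (7 and 3) and Col3a1 (11 and 8) had fewer in replicate 2. Of 8 markers of spleen reticular stroma, 6 had no read in either library, among them Ccl19, Ccl21a, Cxcl13 and Madcam1, and a count of 0 allows up to 3 reads in a library. Endothelial markers had a summed TPM of 12.7 and 14.5, and 0 of the 4 with enough reads were past 2-fold. Stab2 was lower in replicate 2 (0.612-fold, 0.389 to 0.940) and Tie1 higher (1.32-fold, 1.01 to 1.74), while Pecam1 and Eng were nearly level. Of 8 markers of marrow reticular stroma, 2 had enough reads. Cxcl12, the chemokine of these cells, was 4.15-fold higher in replicate 1, with 223 reads there and 52 in replicate 2. The adhesion molecule Vcam1, which macrophages also make, had 704 and 778 reads and was not past 2-fold (1.13-fold). All other markers of that list were under 50 summed reads, each with fewer in replicate 2. Among them, Lepr had 27 and 7 reads (0.280-fold, 0.098 to 0.626), while its TPM was 0.46 and 0.51.

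A shift of the same direction and a similar size was seen in erythroid markers. Of 10, 9 were at least 2-fold higher in replicate 2, with a list median of 1.80 on the log2 scale, and their summed TPM was 58.0 in replicate 1 and 175 in replicate 2. The carbonic anhydrase Car2 was 3.57-fold higher, and the transcription factors Gata1 and Klf1 were 3.59-fold and 3.31-fold higher. Car1, Epb42, Slc4a1, Ermap and Sptb were also past 2-fold. Alas2, of heme synthesis, was level at 1.01-fold. B cell markers differed the other way, with 5 of the 6 that had enough reads at least 2-fold lower in replicate 2, among them Cd79a, Ms4a1, Pax5 and Ebf1, and a summed TPM of 37.6 and 21.3. Of the 13 neutrophil markers, 0 were past 2-fold. The part of these other cell types in the difference of the collagens was not tested.

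**Figure D4:**
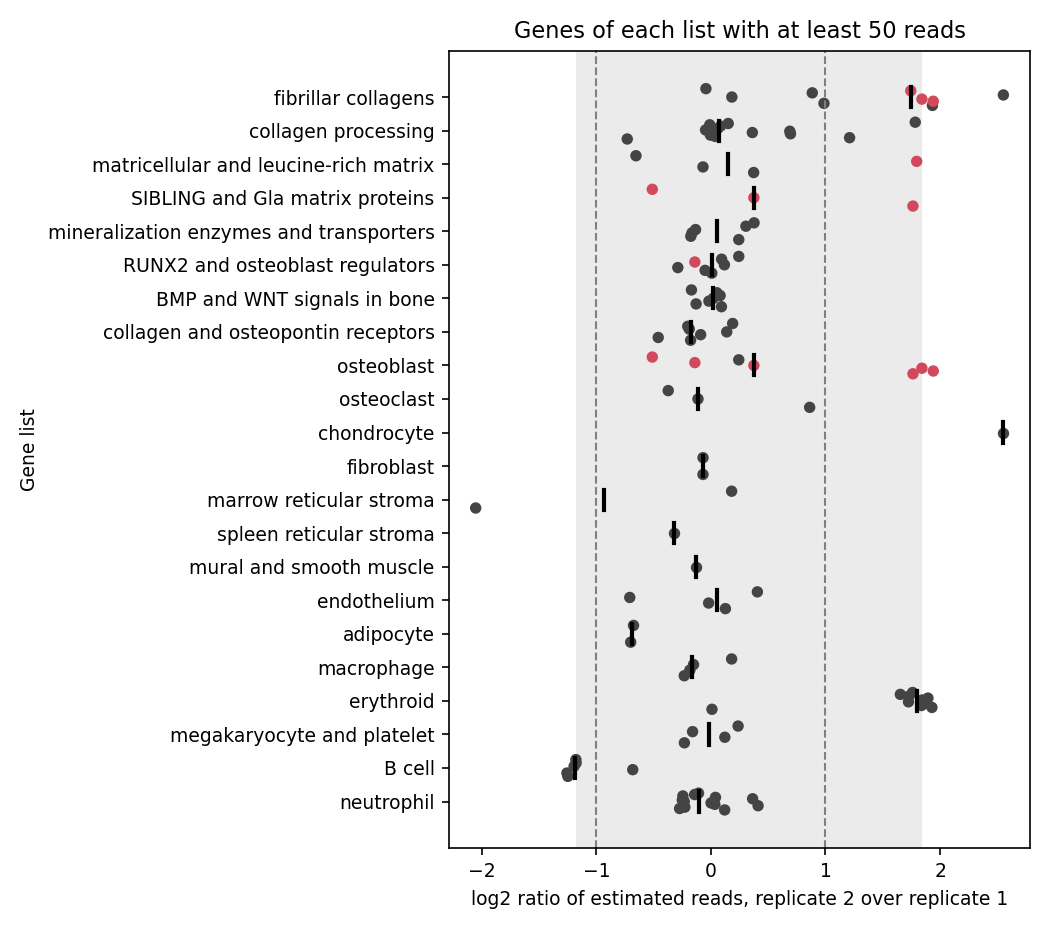
Log2 ratio of replicate 2 over replicate 1 for genes with at least 50 reads in each list, with list medians as black bars, dashed lines at 2-fold and a grey band for the central 99% of all genes compared (-1.17 to 1.83). Bone matrix genes of the list of 10 are in red. Of 10 erythroid markers, 9 lie past 2-fold (list median 1.80), while the fibrillar collagens spread from -0.04 to 2.55, with 5 of 9 past 2-fold.

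The genes whose ratio between the libraries was nearest to that of Col1a1 were sought among 9047 other protein-coding genes with at least 200 reads, and the likeness is over 2 libraries only. The nearest 10 were all within 0.05 of Col1a1 on the log2 scale, and among them were Kel, Col11a1, Car1, Aqp1, Hist3h2ba, Pkhd1l1, Tmem56, Ces2g and Hemgn. Kel, Car1 and Aqp1 encode red cell proteins, and Car1 was also on the erythroid list. Of the 9047 genes, 15 (0.166%) had a ratio at least as high as that of Col1a1.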

How the data were processed

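Total RNA of 2 neutrophil libraries of 1 group was analysed. The deposited gene tables give an expected count (estimated reads, which need not be whole) and a TPM per gene, with a posterior mean TPM beside it. Both come from alignments to the mm10 transcriptome and release M21 of its annotation, per the deposited file lists. A deposited transcript table gives the percent of each gene's TPM per transcript, and a second, estimated from the reads, gives estimated counts and TPM. The sources used here name no aligner and no estimator.

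All 55536 gene identifiers matched the annotation. Levels are TPM per library, with mean and SD of 2. For the difference between the libraries, counts with 0.5 added were scaled by the sum over 55180 genes (356 ribosomal RNA genes left out), and the ratio of replicate 2 over replicate 1 was taken. Exact Clopper-Pearson 95% intervals cover counting error only. A gene was past 2-fold where this ratio was at least 2 in either direction and its summed count was at least 50. With 1 group there was no comparison of conditions and no p-value.

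The members and all lists were chosen with earlier results of these data known. Named genes were the 10 members, list genes past 2-fold, up to the 4 highest of each list by mean TPM, and the 10 genes nearest to Col1a1; others named for their role or for having no reads were chosen after their values were seen. Some genes that this rule names are not reported here. Alternatives were other measures, tables, scalings (edgeR 4.0.16 TMM, DESeq2 1.42.0 size factors, ERCC controls), pseudocounts, count minimums and thresholds. R 4.3.3, Python 3.11.15, numpy 2.4.6, pandas 2.3.3, scipy 1.17.1 and Biopython 1.88 were used. The ratio script was tested on simulated data. No column of another sample was used.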

Additional observations from a re-analysis of the deposited data

How the results depend on the processing

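The 5 genes past 2-fold and the 0 past it in the other direction were the same number under every alternative run, including a 3-fold threshold, the second transcript table and Bglap summed with its paralogs (an alternative chosen after seeing the data). No gene's ratio changed sign over 8 alternatives. On the log2 scale the ratio of Col3a1 ran from -1.19 to -0.26, that of Alpl from 0.0 to 0.66 and that of Bglap from 1.67 to 2.27. With a count minimum of 10 or none, the median over the genes was 1.10. Col1a1 left its counting interval only under ERCC scaling (1.86), under which the median of all genes was -0.08. The counts over all genes moved with the filter. A count minimum of 10 gave 661 genes higher and 593 lower, no minimum 2896 and 2881, a 1.5-fold threshold 508 and 362, and a 3-fold threshold 94 and 22. The number of genes at a TPM of at least 1 was 6 to 7 with either replicate left out and 7 by posterior mean TPM. No paired analysis was possible because there is 1 group. Depth limits Col3a1, Alpl and Ibsp, whose few reads leave wide intervals.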
